A study of Mus musculus with 24 samples.

Results

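The lysosome is the acid compartment in which cells take apart what they have eaten, and 37 genes that build it were followed here through 24 messenger RNA libraries of mouse dendritic cells. The genes were chosen by name, from 55414 counted genes, and all 37 passed the filter on low counts in every model. They were 11 cathepsins and thiol enzymes, 7 glycosidases and acid lipase, 3 cofactors of the lumen, 6 membrane proteins, 7 subunits of the proton pump (V-ATPase) and the 3 transcription factors Tfeb, Tfe3 and Mitf. Dendritic cells were grown from bone marrow of C57BL/6JRj mice that were wild type or carried Cas9-EGFP, and the labels do not tie a genotype to each library. Cells given GM-CSF alone (20 ng/ml, taken at day 8) are called GM cultures, and cells given GM-CSF (20 ng/ml) with FLT3L (200 ng/ml, taken at day 16) are called FL cultures. Cells were taken before treatment (t0) or 24 h later, with DMSO, the solvent, or with AZD5582. AZD5582 is a SMAC mimetic, a small molecule that blocks the inhibitor of apoptosis proteins. There were 8 groups of 3 libraries, and the doses were 0.1, 0.5 or 1 µM for GM cultures and 0.05 µM for FL cultures. The GM libraries share 1 culture number and the FL libraries come from cultures 91, 94 and 95. Whether the GM libraries came from separate animals is not given, so their p-values measure only the spread between these libraries, which may be technical.

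Lysosomal enzymes are made as precursors and work in an acid lumen. Cathepsins cut proteins, glycosidases and the acid lipase take apart sugars and lipids, cofactors such as saposins present lipids to the enzymes, and the V-ATPase pumps in the protons. In dendritic cells this machinery cuts antigen and the invariant chain of MHC class II, and a low degradative capacity of their lysosomes is known to preserve antigen for presentation. TFEB, TFE3 and MITF are related transcription factors that bind an E-box motif, CACGTG, found near the start of many lysosomal genes.

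Libraries held 27012555 to 85820558 counts on genes. Levels are given in CPM, gene counts brought to a common library total by TMM scaling over all 24 libraries, and changes as log2 differences ± standard error, each from a model fitted within its culture type unless both types are compared. A gene was called when its adjusted p was under 0.05 in edgeR's quasi-likelihood test over all genes. Scaling over all 24 libraries put the median gene at -0.11 at 0.5 and 1 µM in GM cultures, against -0.03 and -0.01 in the models, so ratios of the printed CPM lie slightly below the fitted changes. The labelled cell types were checked on marker genes: 8 markers of the cross-presenting cDC1 subset summed to 2220 to 5282 CPM in FL cultures at t0 and to 512.1 to 636.6 CPM in GM cultures at t0. These markers did not move together. Over 24 h in DMSO in FL cultures the receptor Xcr1 (105.3 to 383.3 CPM at t0, 7.76 to 26.45 CPM after) and Cadm1 fell, the transcription factor Batf3 rose (42.56 to 53.82 CPM, then 92.21 to 111.2 CPM), and 5 of the 8 were not called. In GM cultures their sum was 789.4 to 932.7 CPM in DMSO and 2030 to 2177 CPM at 1 µM, most of it Irf8 (means of 655.2 and 1984 CPM), while Xcr1 was at 0 in every library at 0.5 and 1 µM.

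The E-box was looked for in the promoters of the 37 genes, and the stretches below were chosen because they hold it and belong to genes that moved in different directions. RefSeq promoter windows (GRCm38.p6, 250 bases before to 50 after the start) were matched for 31 of the 37 genes. Ctsb, Ctsh, Npc1, Atp6v0d2, Atp6v1b2 and Atp6v1h had none. Each line reads 5′ to 3′ on the strand of the gene and lies before the start, and capitals mark CACGTG.
Lamp1: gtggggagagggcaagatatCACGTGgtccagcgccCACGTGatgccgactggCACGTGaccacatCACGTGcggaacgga
Mcoln1: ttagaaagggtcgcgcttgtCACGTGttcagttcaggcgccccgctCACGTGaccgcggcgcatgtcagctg
Ctsd: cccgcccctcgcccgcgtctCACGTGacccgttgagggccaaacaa
Ctsa: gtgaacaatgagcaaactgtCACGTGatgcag
Naglu: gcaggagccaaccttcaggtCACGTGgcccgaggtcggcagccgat
Lgmn: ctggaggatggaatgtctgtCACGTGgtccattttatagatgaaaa
Ifi30: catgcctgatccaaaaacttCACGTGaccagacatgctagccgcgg
Atp6v1a: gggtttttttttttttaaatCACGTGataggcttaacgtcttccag

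These stretches lie at chr8:13159080-13159160 on the plus strand (Lamp1), chr8:3500428-3500499 plus (Mcoln1), chr7:142387900-142387945 minus (Ctsd) and chr2:164833741-164833772 plus (Ctsa). The others lie at chr11:101070001-101070046 plus (Naglu), chr12:102439116-102439161 minus (Lgmn), chr8:70766834-70766879 minus (Ifi30) and chr16:44139365-44139410 minus (Atp6v1a). The Lamp1 window held 4 copies within 61 bases of the start, the Mcoln1 window 2, and the Ctsd window a second copy 245 bases before the start. The Ctsa window also held a second copy, 5 bases after the start and so outside the stretch printed. CACGTG, which reads the same on both strands, was in the windows of 12 of 31 genes (38.7%), against 8.09% of 27025 genes with a window. The longer TCACGTGA, which contains it, was in 6 of 31 (19.4%), against 1.12%, and GTCACGTG, searched on both strands and overlapping both, in 9 of 31 (29.03%), against 2.55%. Besides the 8 genes printed, Glb1, Gaa and Ctsl held it before the start and Atp6v0d1 across it. At 1 µM in GM cultures, 7 of the 12 were called lower (Lamp1, Mcoln1, Ctsd, Ctsa, Naglu, Glb1 and Ctsl), 2 higher (Lgmn and Ifi30) and 3 were not called (Atp6v1a, Gaa and Atp6v0d1). Of all 37 members 27 were called lower and 4 higher, and of all genes tested 28.2% and 26.9%. Called members whose windows do not have these letters include Psap, Grn, Man2b1 and Atp13a2 (lower) and Ctsz and Atp6v0a1 (higher). A match describes the sequence only.

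In GM cultures after 24 h of AZD5582 the 37 genes together took a smaller share of the messenger RNA at each higher dose. Their summed level averaged 48540 ± 3268 CPM in DMSO (SD, n = 3), 31600 ± 1855 at 0.1 µM, 22220 ± 157.5 at 0.5 µM and 20000 ± 1053 at 1 µM. The 4 groups did not overlap: DMSO libraries spanned 44950 to 51330 CPM, 0.1 µM 29580 to 33230, 0.5 µM 22050 to 22360 and 1 µM 18970 to 21070. As a share of all counts on genes this is a fall from 4.41% to 4.96% in DMSO libraries to 1.63% to 1.97% at 1 µM. At 1 µM the level was called lower for 27 members and higher for 4, where 28.2% and 26.9% of all genes tested were called lower and higher. The median member changed by -0.89 and the median of all genes by -0.01 on the log2 scale. At 0.5 µM 27 were lower and 6 higher (background 27.7% and 25.8%), and at 0.1 µM 24 were lower and 6 higher (20.3% and 19.9%). These 3 comparisons share the same DMSO libraries.

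**Figure D1:**
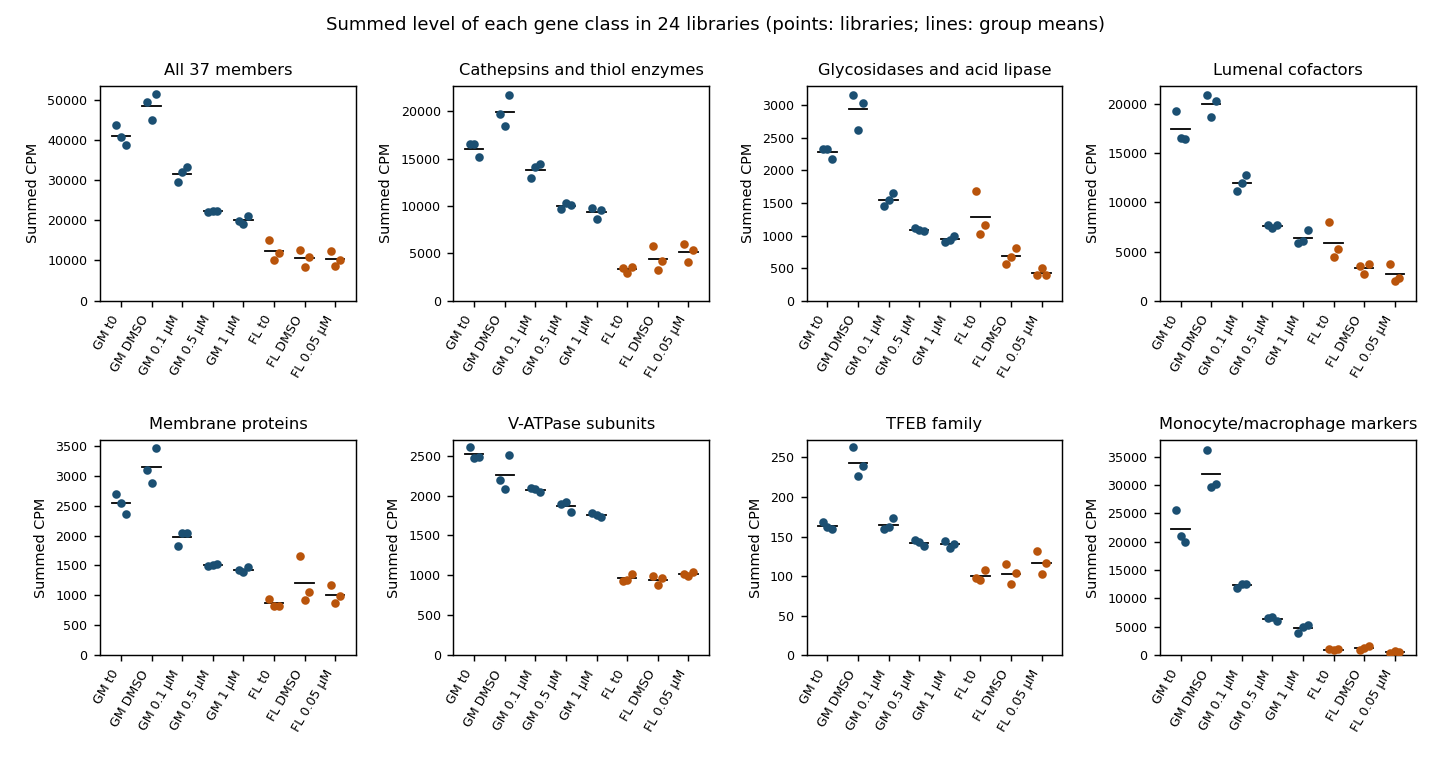
Summed CPM of all 37 members, of each of the 6 classes and of 14 monocyte and macrophage markers (vertical axes, linear from 0) in the 8 groups (horizontal axis). Points are libraries, lines are group means, blue is GM cultures and orange FL cultures. Most of the marker sum is Lyz2. The sum of all members falls from 48540 CPM in GM DMSO to 20000 CPM at 1 µM, while the V-ATPase panel falls from 2262 to 1759 CPM.

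Markers of other cells moved in the same libraries. A list of 14 monocyte and macrophage markers summed to 29590 to 36090 CPM in GM DMSO libraries. At 1 µM the sum was 4000 to 5255 CPM, with 13 of the 14 called lower and none at 0. Of all genes tested 28.2% were called lower at 1 µM and 26.9% higher. Marco was the marker of this list not called, and its means were 82.35 CPM in DMSO, 167.9 CPM at 0.1 µM and 116.3 CPM at 0.5 µM. Lyz2 made up most of the list's sum in every group, with means of 26650 CPM in DMSO and 4182 CPM at 1 µM. Csf1r, the receptor that defines the monocyte lineage, went from 1462 to 1783 CPM to 155.4 to 171.6 CPM. The list of 8 neutrophil markers went from 352.4 to 582.1 CPM to 5.89 to 13.6 CPM, with 8 of 8 called lower and Elane at 0 in the 1 µM libraries. A list of 7 dendritic cell markers summed to 12630 to 15740 CPM in DMSO and 12950 to 16380 CPM at 1 µM. These markers did not move together: Ccr7, Flt3 and Zbtb46 were called higher (3) and Cd74, H2-Ab1, Itgax and Ciita lower (4). Mean Ccr7 went from 1720 to 6385 CPM, Cd74 from 9445 to 6379 CPM and H2-Ab1 from 2399 to 874.8 CPM. Macrophages are rich in lysosomes, and the part of these shifts in the lysosomal results was not tested. In bulk RNA, fewer cells of a type and less RNA per cell cannot be told apart. The share of mitochondrial counts was 8.04% in replicate 1 at 1 µM and 3.96% and 4.27% in the other two. Without that library 27 members were lower and 4 higher at 1 µM.

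The proteases Ctsl, Ctsd, Ctss, Ctsb, Ctsa, Ctsc and Ctsh fell at all 3 doses. Ctsl, which encodes a cysteine cathepsin that also processes invariant chain in thymic epithelium, was at 599.1, 568.5 and 686.7 CPM in DMSO. It was at 214.3, 274.8 and 227.1 CPM at 0.1 µM, at 153.9, 173.2 and 132.7 CPM at 0.5 µM, and at 147.7, 128.3 and 121.0 CPM at 1 µM. Every treated library lay below every DMSO library, and those at 0.5 and 1 µM overlapped. The changes were -1.30 ± 0.12, -1.92 ± 0.13 and -2.11 ± 0.13 (adjusted p = 1.79e-10 at 1 µM). Ctsd, the main aspartic protease, went from a mean of 4940 CPM to 1469 CPM at 1 µM, a change of -1.64 ± 0.12. Ctss, which trims invariant chain in dendritic cells, changed by -1.52 ± 0.10 and Ctsb by -1.39 ± 0.11. Ctsa, a serine carboxypeptidase that also protects galactosidase and neuraminidase, changed by -1.91 ± 0.09. The aminopeptidases Ctsc and Ctsh changed by -0.89 ± 0.12 and -0.54 ± 0.10. In total 7 of the 11 cathepsins and thiol enzymes fell at each dose, where 20.3%, 27.7% and 28.2% of all genes were called lower at 0.1, 0.5 and 1 µM.

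A few members of the same class went the other way. Ifi30 encodes GILT, the thiol reductase that opens disulfide bonds of antigens. Its level was 279.5, 379.9 and 267.3 CPM in DMSO, 527.9, 586.5 and 586.6 CPM at 0.1 µM, 430.3, 511.6 and 494.4 CPM at 0.5 µM, and 523.1, 441.6 and 500.6 CPM at 1 µM. All 9 treated libraries lay above the 3 DMSO libraries, and the doses overlapped. Changes were 0.95 ± 0.12, 0.72 ± 0.12 and 0.77 ± 0.12 (adjusted p = 2.94e-05 at 1 µM). Ctsz, a carboxypeptidase, rose by 0.61 ± 0.10, 0.54 ± 0.10 and 0.65 ± 0.10. Lgmn, the asparaginyl endopeptidase that activates other cathepsins, stood at 0.22 ± 0.10 at 0.1 µM (adjusted p = 0.0989) and rose by 0.40 ± 0.10 and 0.51 ± 0.10 at the higher doses. It was the 1 member whose group means rose in the order DMSO, 0.1, 0.5 and 1 µM.

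Ctsk, the collagen-cutting cathepsin best known from osteoclasts, was highest at the lowest dose. It was at 34.54, 44.72 and 32.17 CPM in DMSO, at 89.68, 101.8 and 87.05 CPM at 0.1 µM, at 51.48, 48.15 and 41.37 CPM at 0.5 µM, and at 42.07, 37.13 and 38.33 CPM at 1 µM. The 0.1 µM libraries stood above all others, and the 1 µM libraries lay within the range of DMSO. The change was 1.39 ± 0.13 at 0.1 µM (adjusted p = 1.54e-07) and 0.43 ± 0.13 at 0.5 µM. At 1 µM the value was 0.18 ± 0.13 (adjusted p = 0.241), and it was called without DMSO replicate 2 (0.34, adjusted p = 0.0361). With library totals in place of TMM the call at 0.5 µM was lost (0.27, adjusted p = 0.0863).

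**Figure D2:**
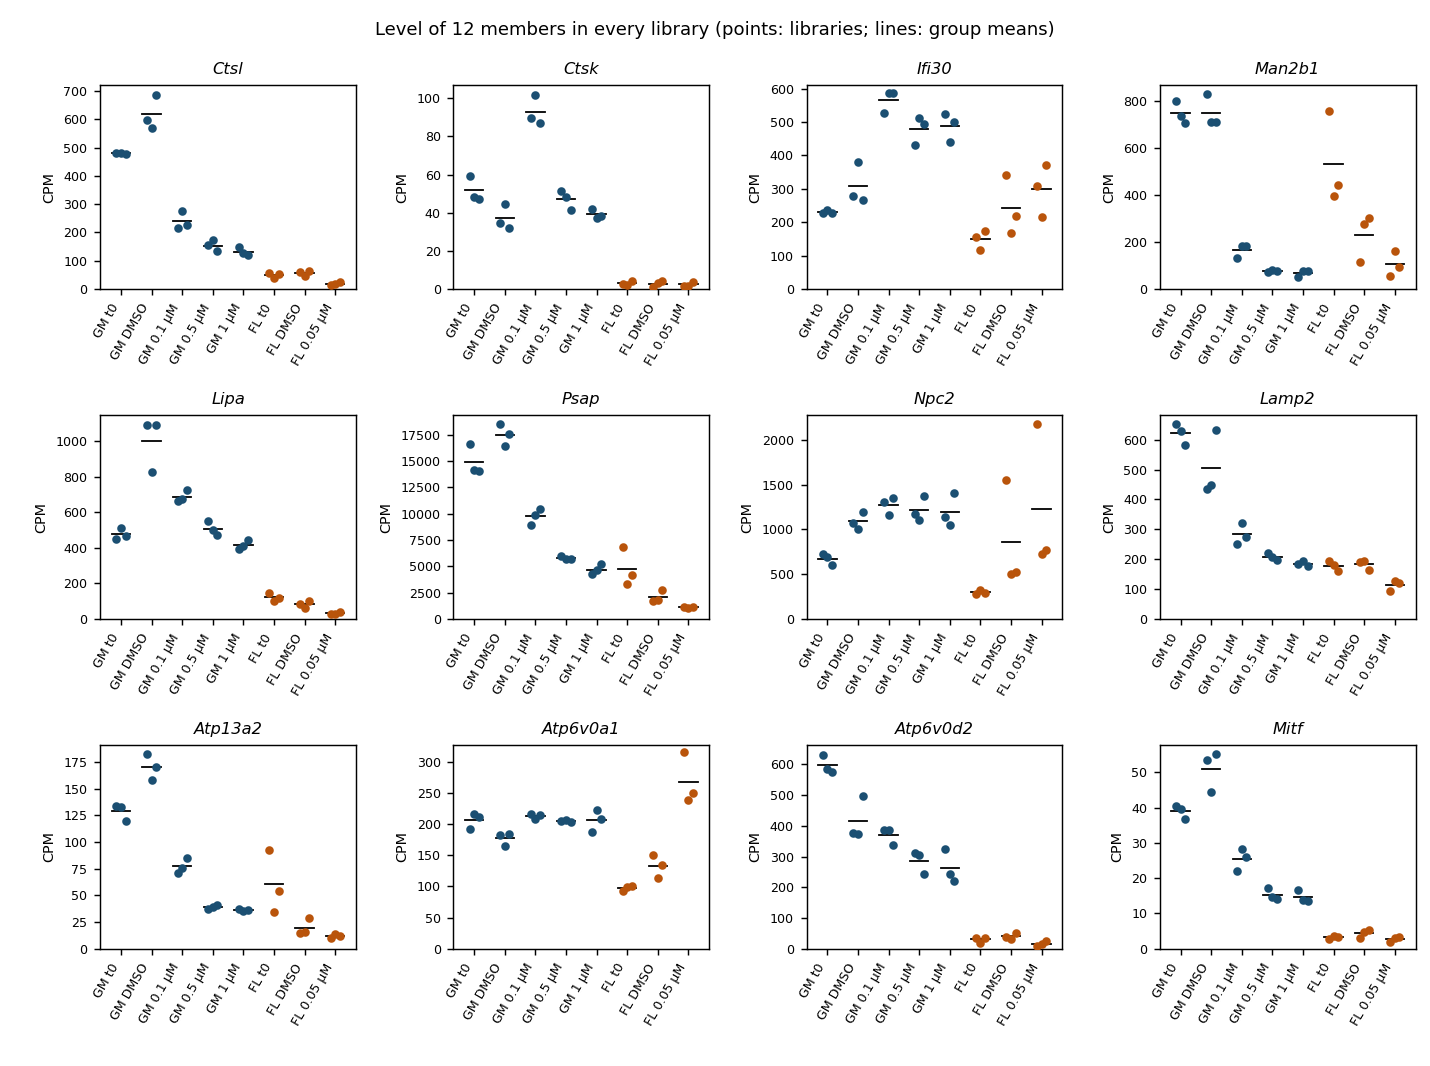
CPM of 12 members (vertical axes, linear from 0) in all 8 groups (horizontal axis), with 1 point for each library and a line at the group mean. Blue is GM cultures and orange FL cultures. Ctsl, Man2b1, Psap and Atp13a2 step down from DMSO with AZD5582 in GM cultures, Ctsk peaks at 0.1 µM, and Atp6v0a1 is highest in FL cultures at 0.05 µM, at 238.7 to 315.9 CPM.

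Among the enzymes that take apart sugars and lipids, 6 of 7 fell at each dose (20.3%, 27.7% and 28.2% of all genes at 0.1, 0.5 and 1 µM). Man2b1, lysosomal alpha-mannosidase, had the largest fall of all 37 members. Its levels were 829.0, 712.6 and 713.3 CPM in DMSO, 130.6, 180.9 and 183.4 CPM at 0.1 µM, 73.11, 82.44 and 78.26 CPM at 0.5 µM, and 49.65, 76.85 and 74.71 CPM at 1 µM. Treated libraries lay far below DMSO at every dose, with overlap between 0.5 and 1 µM. The changes were -2.12 ± 0.15, -3.18 ± 0.15 and -3.38 ± 0.15 (adjusted p = 9.89e-12 at 1 µM). Hexa, the alpha subunit of the hexosaminidase that is lost in Tay-Sachs disease, changed by -1.76 ± 0.10 at 1 µM. Lipa, the lysosomal acid lipase that frees cholesterol from its esters, changed by -1.16 ± 0.11, Gusb by -1.27 ± 0.09 and Naglu by -0.96 ± 0.08.

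Glb1, the beta-galactosidase, had the smallest called fall of the class at 1 µM. It was at 63.0, 60.6 and 59.57 CPM in DMSO, 36.25, 44.62 and 43.43 CPM at 0.1 µM, 41.71, 49.21 and 45.28 CPM at 0.5 µM, and 47.79, 48.03 and 46.59 CPM at 1 µM. All treated libraries lay below DMSO. Its change was -0.49 ± 0.09 at 0.1 µM and -0.25 ± 0.09 at 1 µM, where the call was lost without DMSO replicate 1 or 2 or without 1 µM replicate 2 or 3 (adjusted p = 0.0525 to 0.085). Gaa, which breaks down glycogen, rose at 0.1 µM by 0.42 ± 0.09 and was at 0.14 ± 0.09 at 1 µM (adjusted p = 0.222).

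Psap, the precursor of the 4 saposins that lift lipids out to the hydrolases, had levels of 18490, 16400 and 17590 CPM in GM DMSO, 8946, 9883 and 10440 CPM at 0.1 µM, 6004, 5710 and 5693 CPM at 0.5 µM, and 4246, 4605 and 5219 CPM at 1 µM. The 4 groups did not overlap. It changed by -0.77 ± 0.11, -1.50 ± 0.11 and -1.79 ± 0.12, with an adjusted p of 4.52e-10 at 1 µM. Psap alone made up 36.03% of the members' summed CPM in DMSO and 23.45% at 1 µM. Grn, the precursor of granulins, changed by -0.47 ± 0.11, -1.22 ± 0.11 and -1.41 ± 0.11. Npc2, the soluble protein that hands cholesterol to Npc1, was at 1076, 999.9 and 1198 CPM in DMSO and at 1137, 1054 and 1403 CPM at 1 µM, which overlap. Its value against DMSO was 0.24 ± 0.12 (adjusted p = 0.0964), and it was called at 1 µM without 1 µM replicate 2 (0.33, adjusted p = 0.0371).

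The membrane proteins were lower together: 6 of 6 fell at 0.5 and 1 µM (27.7% and 28.2% of all genes) and 5 of 6 at 0.1 µM (20.3%). Atp13a2, a polyamine exporter of the lysosomal membrane, was at 182.3, 158.0 and 170.7 CPM in DMSO, 71.08, 76.04 and 84.61 CPM at 0.1 µM, 36.81, 39.55 and 41.04 CPM at 0.5 µM, and 36.95, 35.49 and 36.76 CPM at 1 µM. Doses of 0.5 and 1 µM overlapped, and every treated library was below DMSO. The change at 1 µM was -2.12 ± 0.09 (adjusted p = 4.11e-12). Lamp1 and Lamp2, the abundant glycoproteins that line the membrane, changed by -0.98 ± 0.10 and -1.34 ± 0.13. Npc1, which carries cholesterol out, changed by -1.26 ± 0.10. Scarb2, the receptor that brings in glucocerebrosidase, changed by -0.50 ± 0.08 and the calcium channel Mcoln1 by -0.48 ± 0.10, the smallest falls of the class. At 0.1 µM Mcoln1 was at 23.36 to 29.61 CPM, against 27.6 to 30.55 CPM in DMSO.

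The proton pump moved least. Of 7 V-ATPase subunits, 1 was called higher and 3 lower at 1 µM, where 26.9% and 28.2% of all genes were. The class median was -0.001, against -0.01 for all genes. Atp6v0a1, a subunit of the membrane sector, was at 182.3, 165.3 and 184.1 CPM in DMSO, 216.4, 208.3 and 214.3 CPM at 0.1 µM, 205.6, 206.2 and 202.9 CPM at 0.5 µM, and 188.0, 223.3 and 208.9 CPM at 1 µM. Treated libraries lay just above DMSO. Its rise by 0.33 ± 0.08 at 1 µM (adjusted p = 0.00224) was lost with library totals in place of TMM (0.11, adjusted p = 0.381), as were its calls at 0.1 and 0.5 µM. That scaling put the median gene at -0.23 at 1 µM, and under it Atp6v0d1 and Atp6v1h were called lower (-0.24 and -0.19). With TMM neither was called at any dose: Atp6v0d1 spanned 201.7 to 204.3 CPM in DMSO and 170.3 to 214.4 CPM at 1 µM, and Atp6v1h 70.92 to 80.55 and 68.2 to 80.75 CPM.

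Atp6ap1, an accessory protein of pump assembly, was at 432.6, 398.1 and 433.0 CPM in DMSO, 298.1, 315.2 and 315.1 CPM at 0.1 µM, 248.4, 257.9 and 243.8 CPM at 0.5 µM, and 244.9, 223.7 and 241.5 CPM at 1 µM. It fell below DMSO in all treated libraries, by -0.72 ± 0.08 at 1 µM (adjusted p = 5.63e-07), the largest fall of the class. Atp6v0d2, the membrane-sector subunit abundant in osteoclasts and macrophages, changed by -0.55 ± 0.15, and Atp6v1b2, an ATP-binding subunit of the cytosolic sector, by -0.32 ± 0.09. Atp6v1a, the subunit that hydrolyses ATP, was called higher at 0.1 and 0.5 µM (0.37 ± 0.12 and 0.33 ± 0.12), but each call was lost without any 1 of 5 single libraries and with library totals.

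**Figure D3:**
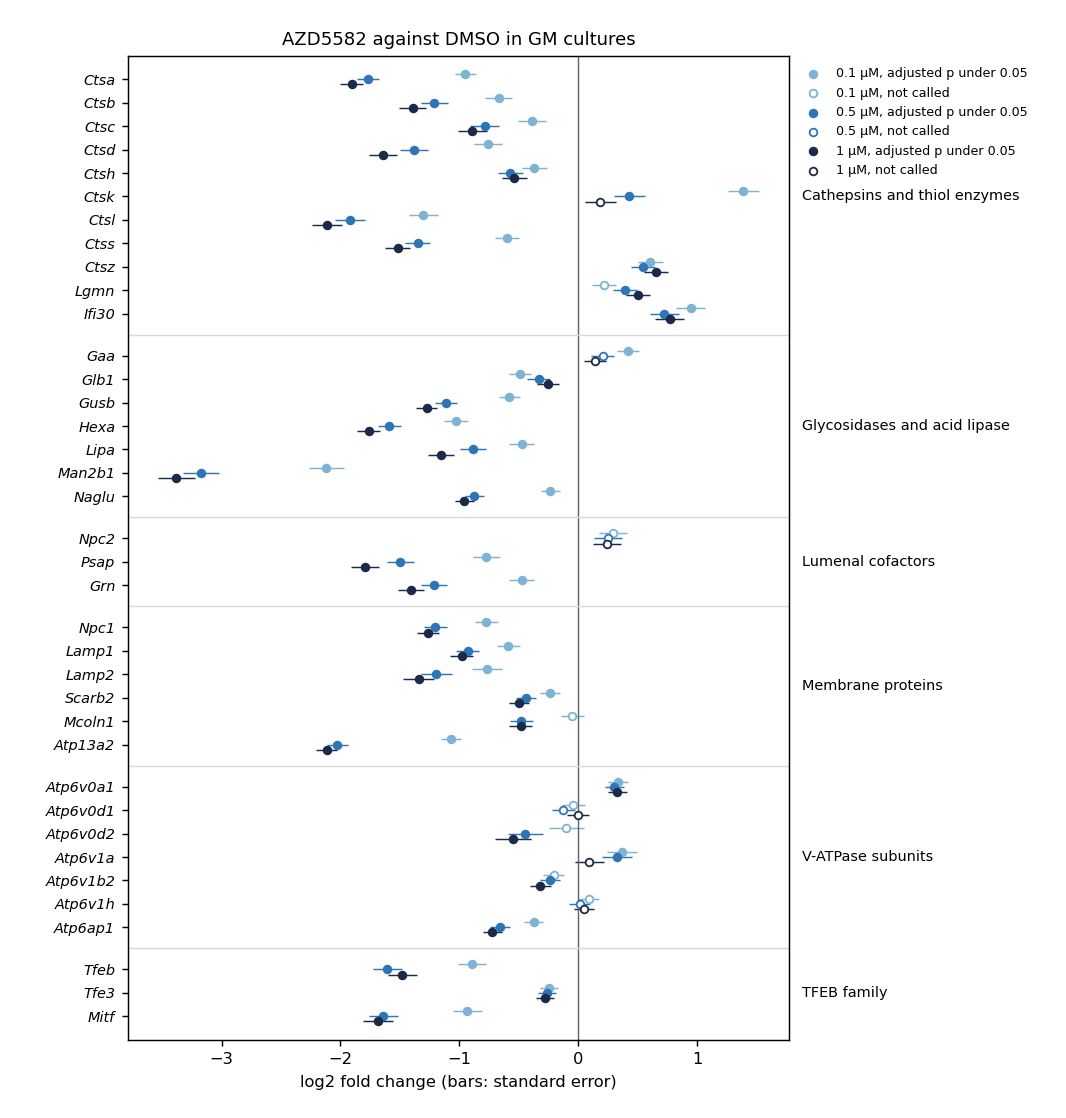
Change of each of the 37 members in GM cultures at 0.1, 0.5 and 1 µM AZD5582 against DMSO (horizontal axis, log2; bars are standard errors; vertical axis, genes by class). Filled points have an adjusted p under 0.05. Man2b1 reaches -3.38 at 1 µM, and the V-ATPase subunits lie between -0.72 and 0.33.

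The transcription factors fell as well. Mitf was at 53.43, 44.37 and 55.05 CPM in DMSO, 22.03, 28.4 and 25.92 CPM at 0.1 µM, 17.12, 14.8 and 14.15 CPM at 0.5 µM, and 16.56, 13.91 and 13.55 CPM at 1 µM. Every treated library was below DMSO, and 0.5 and 1 µM overlapped. The changes were -0.93 ± 0.12, -1.64 ± 0.12 and -1.69 ± 0.12 (adjusted p = 2.65e-09 at 1 µM). Tfeb changed by -0.89 ± 0.12, -1.61 ± 0.12 and -1.48 ± 0.12, and Tfe3 by only -0.25 ± 0.08, -0.26 ± 0.08 and -0.28 ± 0.08. These are RNA levels, and the activity of these factors is known to depend on phosphorylation and entry into the nucleus.

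The trend over the 3 doses, as a slope per 10-fold dose that does not use the DMSO libraries, was downward for 25 members and upward for 1 (background 12.9% and 7.47%). Man2b1 had the steepest slope, -1.31 ± 0.14, followed by Ctsk (-1.23 ± 0.12), Atp13a2 (-1.10 ± 0.08) and Psap (-1.02 ± 0.11). A downward slope need not be a fall below DMSO. Ctsk and Gaa, both among the 25, were called higher than DMSO at 0.1 µM and not called at 1 µM. The upward call was Lgmn (0.29 ± 0.10, adjusted p = 0.049), which was lost without any of 8 of the 9 treated libraries, left out in turn, and with library totals (0.16, adjusted p = 0.247). Group means ran downward in the order DMSO, 0.1, 0.5 and 1 µM for 24 members.

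Genes outside the 37 that do the same work were taken from lists of lysosomal genes. Of 28 other lysosomal hydrolases tested, 25 were lower and 1 higher at 1 µM, where 28.2% and 26.9% of all genes were. Ctse, an aspartic protease, was at 3.79 to 5.69 CPM in DMSO and 0.0712 to 0.135 CPM at 1 µM, and Sgsh, a sulfatase of heparan sulfate, changed by -2.61 ± 0.16. Acp5, the tartrate-resistant phosphatase, was the 1 that rose (0.57 ± 0.12). Of 17 other membrane proteins 14 were lower, with Laptm5 at -2.23 ± 0.12 and Cd68, also a macrophage marker, at -1.48 ± 0.13, and 2 were higher, among them Cd63 (0.83 ± 0.13). Of 12 other V-ATPase subunits 4 were lower and 3 higher, near the shares of all genes. Tcirg1 changed by -1.28 ± 0.09 and Atp6v0a2 by -1.02 ± 0.09, both isoforms of the a subunit. Atp6v0e rose by 1.09 ± 0.12 and Atp6v1f by 0.57 ± 0.13.

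Lists that act on lysosomal enzymes or on TFEB were mixed at 1 µM, where 26.9% of all genes were called higher and 28.2% lower. Of 9 sorting factors and cystatins 3 were higher and 3 lower, near those shares. Cst7, an inhibitor of cysteine cathepsins, rose by 2.20 ± 0.16, with DMSO libraries at 2.23 to 3.26 CPM and 1 µM libraries at 10.52 to 12.87 CPM. Gnptab, which makes the mannose 6-phosphate tag of lysosomal enzymes, rose by 1.44 ± 0.15. Nagpa, which uncovers that tag, changed by -1.38 ± 0.10, and Igf2r, one of its receptors, by -1.24 ± 0.10. Of 15 regulators and relatives of TFEB 8 were lower and 4 higher. Lamtor4, of the complex that anchors mTORC1 on lysosomes, changed by -1.44 ± 0.15 and Tfec by -0.95 ± 0.15, while Rptor rose by 0.73 ± 0.13 and Sqstm1 by 0.52 ± 0.13.

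A day in culture with solvent alone moved fewer members, in both directions. In GM cultures, DMSO at 24 h against t0, 15 members were higher and 8 lower (background 27.2% and 20.3%). With library totals in place of TMM the split was 11 higher and 13 lower (19.7% and 28.1% of all genes). Lipa rose most, from 451.6, 511.2 and 464.4 CPM at t0 to 1088, 827.6 and 1092 CPM, a rise of 1.06 ± 0.11 (adjusted p = 2.9e-07). Ctsh rose from 528.5, 471.9 and 429.0 CPM to 905.3, 922.3 and 773.9 CPM (0.85 ± 0.11). Both genes had no overlap between t0 and DMSO. Npc2 rose from 724.8, 691.3 and 605.4 CPM (0.69 ± 0.12) to the DMSO levels above.

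Other members with a clear move over the 24 h included Scarb2, at 190.1, 182.3 and 171.0 CPM at t0 and 291.8, 275.7 and 329.2 CPM in DMSO (0.71 ± 0.08). Tfe3 went from 89.85, 84.96 and 84.6 CPM to 154.1, 135.9 and 139.4 CPM (0.72 ± 0.08, adjusted p = 5.08e-07), so that all 3 transcription factors were called higher. The calls of Tfeb and Mitf (0.35 ± 0.12 and 0.38 ± 0.12) were each lost without single libraries and with library totals. Atp6v0d2 was at 631.9, 584.7 and 575.3 CPM at t0 and at 378.0, 374.0 and 498.8 CPM in DMSO, without overlap (-0.53 ± 0.15, adjusted p = 0.00708). Ctsk fell from 59.43, 48.24 and 47.25 CPM (-0.48 ± 0.13), Grn from 1954, 1778 and 1736 CPM to 1360, 1289 and 1531 CPM (-0.40 ± 0.11), and Glb1 from 84.8, 91.99 and 77.83 CPM (-0.49 ± 0.09). The monocyte and macrophage list summed to 19970 to 25670 CPM at t0, below its DMSO range, and its part in these changes was not tested.

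FL cultures at t0 had much less of this RNA than GM cultures at t0. The 37 members summed to 10240 to 15130 CPM in FL and 38740 to 43630 CPM in GM libraries, or 1.22% to 1.68% and 4.35% to 4.69% of counts. In the model of all 24 libraries 32 members were lower in FL cultures and 0 higher (background 17.5% and 23.4%), and the median member stood at -1.14 against 0.09 for all genes. DESeq2, which called 25.3% of all genes higher, also called 0 members higher. At an unadjusted p under 0.05 in edgeR, met by 8327 of 17262 genes in either direction, 0 were higher. Culture type, cytokines, day and set of cultures differ together here and cannot be told apart. The monocyte and macrophage list summed to 841.7 to 1090 CPM in FL and 19970 to 25670 CPM in GM cultures, with 14 of 14 called lower and none at 0, and its part in the difference was not tested. Neutrophil markers went the other way, at 1210 to 4097 CPM in FL and 269.4 to 326.6 CPM in GM cultures.

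The cathepsins differed most as a class, with 10 of 11 lower in FL cultures (17.5% of all genes) and a median of -2.40. Ctsk was at 2.38, 2.30 and 4.15 CPM in FL cultures at t0 against the 47.25 to 59.43 CPM of GM cultures, a difference of -4.14 ± 0.35 (adjusted p = 1.28e-08). Atp6v0d2 was at 35.02, 20.3 and 35.37 CPM in FL cultures against 575.3 to 631.9 CPM (-4.30 ± 0.29, adjusted p = 4.77e-10). Mitf was at 2.87, 3.58 and 3.43 CPM against 36.83 to 40.42 CPM (-3.56 ± 0.21). No FL library came near a GM library in these 3 genes. They are known from osteoclasts among other cells. Of 6 osteoclast markers tested, Acp5, Ocstamp and Dcstamp were lower in FL cultures and 3 were not called, with Nfatc1 at means of 87.17 CPM in FL and 87.94 CPM in GM cultures. Ctsd differed by -3.80 ± 0.28 and Ctsl by -3.27 ± 0.19.

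The other classes differed less. Lipa was at 143.5, 98.67 and 119.3 CPM in FL and 451.6 to 511.2 CPM in GM cultures (-1.98 ± 0.19), Lamp2 at 193.3, 178.9 and 158.7 CPM against 582.1 to 654.2 CPM (-1.81 ± 0.15), and Psap at 6810, 3349 and 4141 CPM against 14060 to 16630 CPM (-1.65 ± 0.22). No FL library reached a GM library in these 3 genes. The 5 members not called were Lgmn, Gusb, Man2b1, Mcoln1 and Tfeb. Man2b1 spanned 394.2 to 759.5 CPM in FL and 707.0 to 802.3 CPM in GM cultures, and Gusb 262.7 to 407.8 and 306.8 to 354.3 CPM, both with overlap. Mcoln1 spanned 29.94 to 38.26 CPM in FL and 32.12 to 34.21 CPM in GM cultures. The calls of Ctsh, Ifi30 and Tfe3 (-0.70, -0.62 and -0.35) were each lost without 4 or 5 single libraries.

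**Figure D4:**
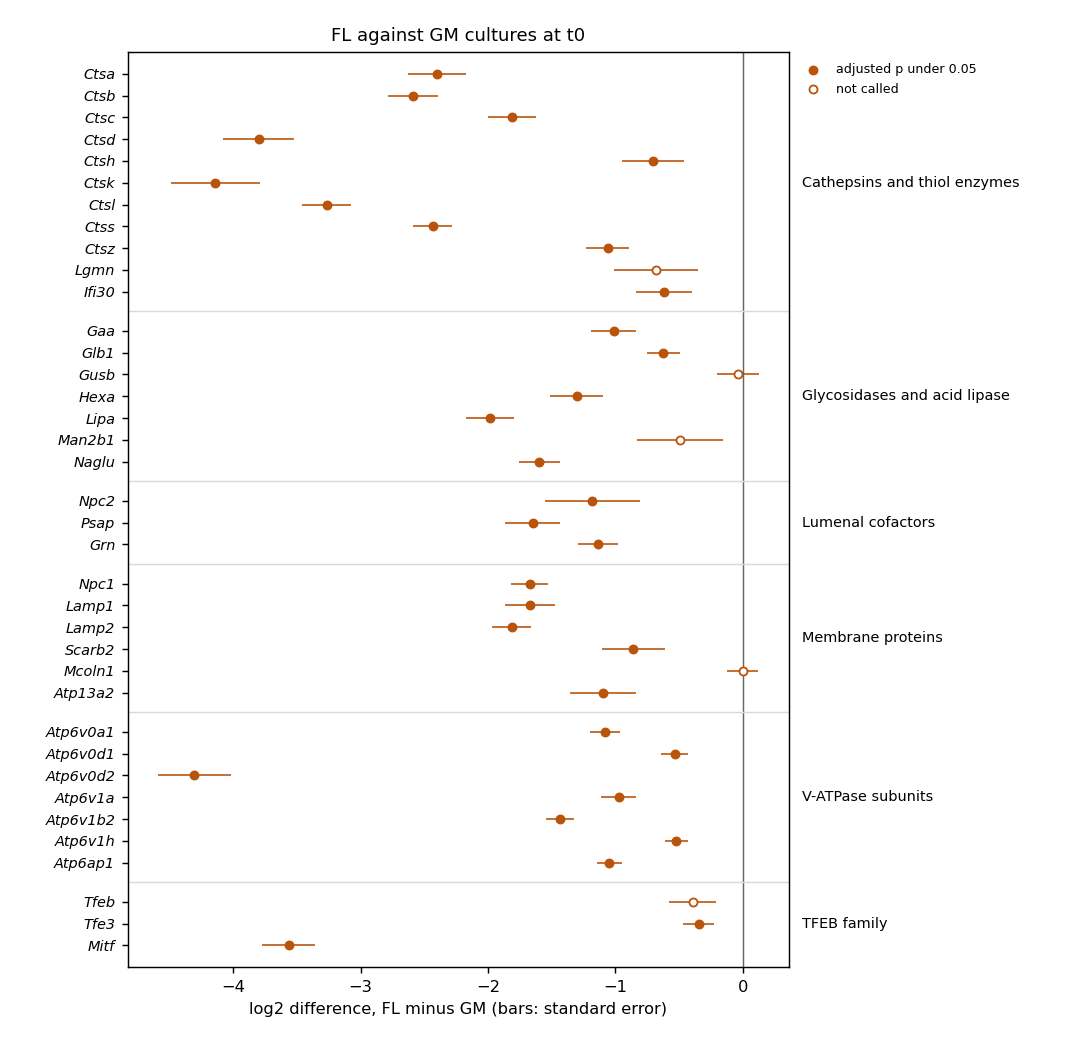
Difference of each of the 37 members between FL and GM cultures at t0 (horizontal axis, log2, FL minus GM; bars are standard errors; vertical axis, genes by class). Filled points have an adjusted p under 0.05. All called members lie left of 0, from -0.35 for Tfe3 to -4.30 for Atp6v0d2.

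In FL cultures 6 members fell and 0 rose over a day in DMSO (background 5.18% and 4.96%). In edgeR at an unadjusted p under 0.05, met by 4744 of 15961 genes in either direction, 5 were higher and 11 lower. DESeq2 called 3 higher and 7 lower, and 11.7% and 10.2% of all genes. With library totals in place of TMM 5 were lower and 1 higher (4.28% and 4.39% of all genes). Same-numbered FL libraries come from 1 culture, and with the culture as a block 7 were lower and 1, Lamp1, higher (0.80, adjusted p = 0.0498), where that fit called 10.2% and 9.23% of all genes lower and higher. With only the t0 and DMSO libraries fitted the 6 calls were lost (adjusted p = 0.0529 to 0.0796). Grn fell from 931.8, 726.9 and 827.0 CPM at t0 to 274.9, 386.3 and 454.2 CPM (-1.15 ± 0.22, adjusted p = 0.021), and Psap from 6810, 3349 and 4141 CPM to 1707, 1784 and 2709 CPM (-1.20 ± 0.31, adjusted p = 0.0438). Neither gene's groups overlapped. The others were Atp13a2 (-1.61 ± 0.39), Gusb (-0.90 ± 0.24), Glb1 (-0.70 ± 0.17) and Atp6v1h (-0.53 ± 0.12), and each of the 6 calls was lost without 3 to 6 of the 6 single libraries, left out in turn. Counted by culture, 17 members were lower and 14 higher in all 3 cultures, where 35.1% and 28.8% of 12452 genes were. Over the same 24 h the dendritic cell list went from 18620 to 24070 CPM to 10430 to 16390 CPM, with Itgax, H2-Ab1 and Ciita called lower, and the cDC1 list from 2220 to 5282 CPM to 915.0 to 1680 CPM. Other lists went up. In cultures 91, 94 and 95 neutrophil markers went from 1210, 4097 and 2013 CPM to 1974, 9511 and 3824 CPM. A list of 7 mast cell and basophil markers went from 200.6, 792.5 and 381.7 CPM to 621.4, 1368 and 765.8 CPM. In each of these 2 lists 1 marker was called higher and 0 lower. The part of these lists in the members' changes was not tested.

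Culture 91 after 24 h in DMSO stood apart from cultures 94 and 95. Lgmn was at 1152 CPM there and at 297.1 and 409.5 CPM in the other two, Npc2 at 1557 against 505.5 and 526.8 CPM, and Lamp1 at 1152 against 548.9 and 644.0 CPM. Man2b1 was at 113.5 CPM there against 275.2 and 303.4 CPM, and the log2(CPM + 1) of Atp13a2 differed from t0 by -2.60 within culture 91 and by -1.10 and -0.88 within cultures 94 and 95. Without that library 3 members were lower and 0 higher over the 24 h, and 4 were higher and 5 lower at 0.05 µM. The share of all genes called without that library was not kept, so these counts have no background. In direction the 3 cultures were alike in 31 of the 37 members over the 24 h, where 28.8% of 12452 genes were higher and 35.1% lower in all 3. Neutrophil markers summed to 1974, 9511 and 3824 CPM in the DMSO libraries of cultures 91, 94 and 95, so culture 94 was highest. Their part in these values was not tested.

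AZD5582 at 0.05 µM in FL cultures moved 1 member up and 2 down past the threshold (background 1.62% and 1.28%). Atp6v0a1 was at 150.6, 114.2 and 134.6 CPM in DMSO and at 315.9, 238.7 and 249.8 CPM with the drug, for cultures 91, 94 and 95 in turn. All 3 treated libraries lay above the DMSO libraries, with a rise of 1.01 ± 0.17 (adjusted p = 0.0252). Ctsl fell from 58.36, 46.86 and 63.93 CPM to 15.11, 17.49 and 24.59 CPM (-1.57 ± 0.24, adjusted p = 0.0189), and Lipa from 85.77, 59.62 and 98.03 CPM to 27.05, 27.81 and 40.29 CPM (-1.36 ± 0.25, adjusted p = 0.0315). The groups of both genes did not overlap. With only the DMSO and drug libraries fitted all 3 calls were lost, at similar sizes (1.00, -1.58 and -1.37 for Atp6v0a1, Ctsl and Lipa, adjusted p = 0.119, 0.0775 and 0.106). With single libraries left out in turn, leaving out any 1 of 4 lost the call of Atp6v0a1, and likewise that of Lipa. Any 1 of 2 lost that of Ctsl. In those runs adjusted p was between 0.0508 and 0.126, with changes of 0.91 to 1.10, -1.20 to -1.52 and -1.38 to -1.47 for Atp6v0a1, Lipa and Ctsl.

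With the culture as a block, 3 members rose and 5 fell, and that fit called 3.69% of all genes higher and 3.19% lower. Ctsc (0.73, adjusted p = 0.0336) and Gaa (0.87, adjusted p = 0.024) were added upward, and Ctss (-0.67), Lamp2 (-0.70) and Atp6v0d2 (-1.25) downward. Within cultures Atp6v0a1 differed from DMSO by 1.06, 1.06 and 0.89 and Gaa by 0.95, 0.80 and 0.79, on the log2(CPM + 1) scale for cultures 91, 94 and 95. Ctsl differed by -1.88, -1.37 and -1.34, and Psap, which the block did not call, by -0.56, -0.85 and -1.22. In all, 17 members were lower and 10 higher in all 3 cultures, where 30.3% and 27.4% of 12527 genes were. Without the 3 libraries of culture 91, 5 members rose and 7 fell, where calls over all genes also went up, to 8.03% higher and 6.05% lower. Among the members were Psap (-1.02, adjusted p = 0.0233) and Lgmn (1.25, adjusted p = 0.0283). Over 24 h in DMSO 1 rose and 5 fell (4.39% and 6.15% of all genes), with Psap no longer called (-0.75, adjusted p = 0.0714). The monocyte and macrophage list summed to 928.1 to 1604 CPM in DMSO and 335.6 to 762.7 CPM with the drug, with none at 0. In the main fit 5 of 14 were called lower and 1 higher, and 1.28% and 1.62% of all genes. Neutrophil markers summed to 1974, 9511 and 3824 CPM in DMSO and to 164.5, 3430 and 313.7 CPM with the drug in cultures 91, 94 and 95, with 0 of 8 called. The cDC1 list went from 915.0 to 1680 CPM to 1615 to 3748 CPM, most of it Irf8, while 3 of its 8 markers were called lower and 0 higher. The part of these lists in the changes was not tested.

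**Figure D5:**
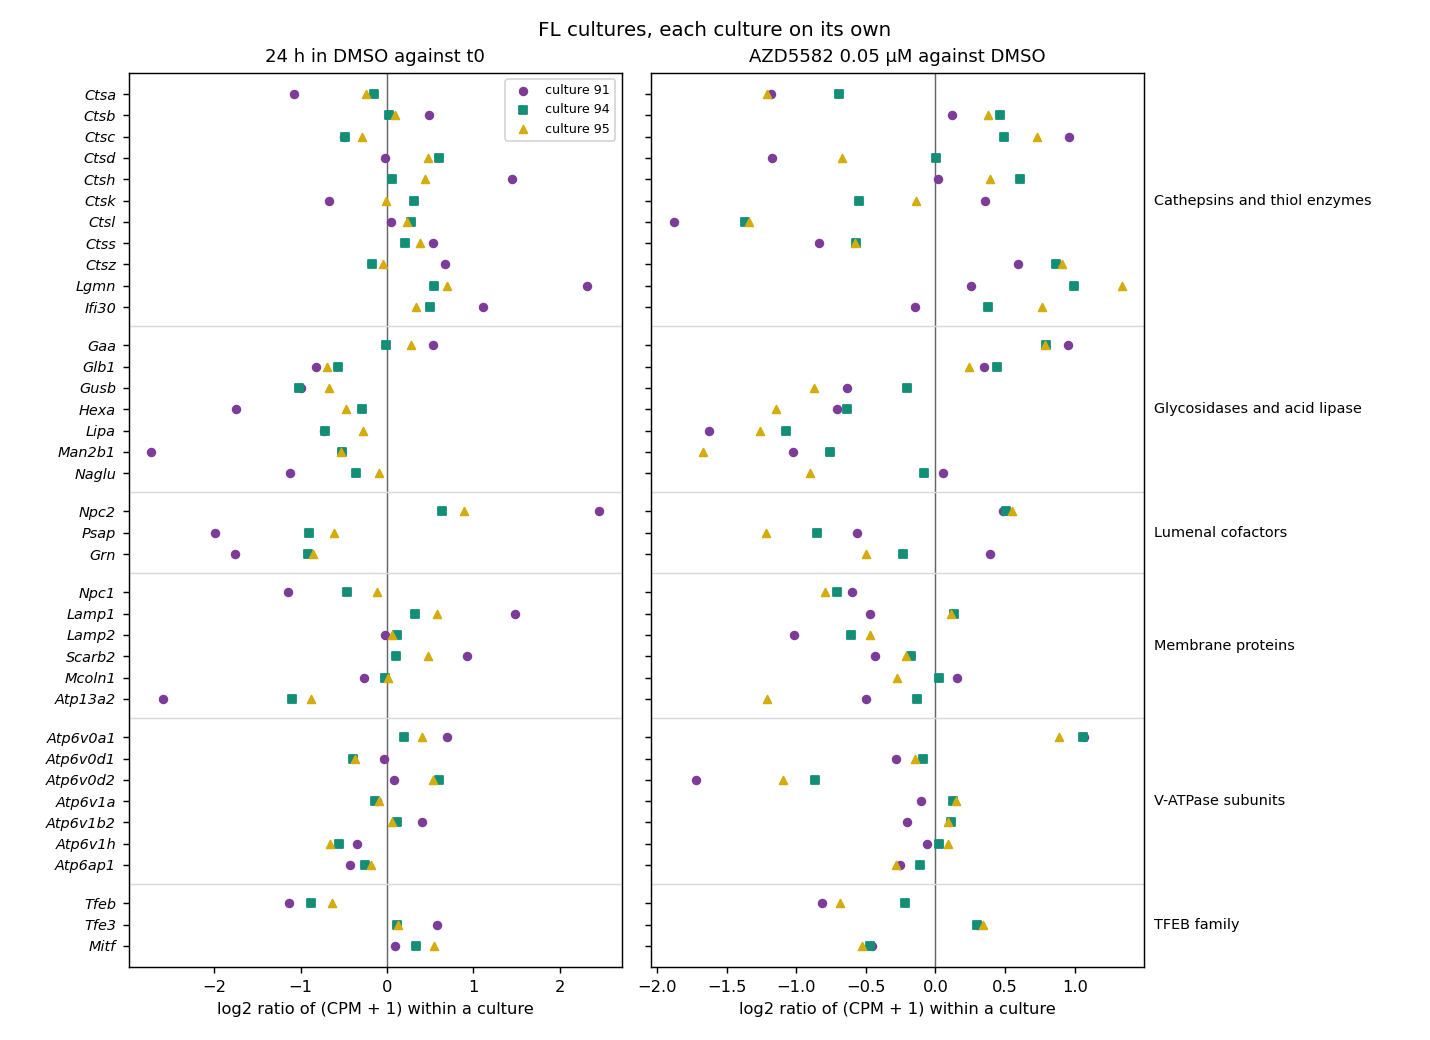
Change of each of the 37 members within each FL culture (horizontal axes, log2 ratio of CPM + 1; vertical axis, genes by class), for 24 h in DMSO against t0 (left) and 0.05 µM AZD5582 against DMSO (right). Markers stand for cultures 91, 94 and 95. Atp6v0a1 lies between 0.89 and 1.06 and Ctsl between -1.88 and -1.34 with AZD5582, and culture 91 lies apart for Lgmn, Npc2, Man2b1 and Atp13a2 in DMSO.

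The nearest doses in the 2 culture types were 0.05 µM in FL and 0.1 µM in GM cultures, which differ, so dose and culture type cannot be told apart. Side by side, Ctsl stood at -1.57 in FL and -1.30 in GM cultures against DMSO, Psap at -0.91 and -0.77, Ctsa at -1.01 and -0.95, Ctsk at -0.23 and 1.39, and Atp6v0a1 at 1.01 and 0.34. Of these, Psap, Ctsa and Ctsk were not called in FL cultures. The difference of the 2 responses, tested in the model of all libraries, was called for 3 members, each higher in FL cultures, and for 0 lower (background 0.967% and 0.707%). The 3 called higher were Ctsc (1.22 ± 0.26, adjusted p = 0.0186), Glb1 (0.92 ± 0.18, adjusted p = 0.0129) and Atp6v0a1 (0.74 ± 0.17, adjusted p = 0.0247). At an unadjusted p under 0.05 in edgeR, met by 2277 of 17262 genes in either direction, 3 other members were lower. DESeq2 called 2 lower (1.91% of all genes). Ctsc and Glb1 fell in GM cultures at 0.1 µM and stood at 0.76 ± 0.24 and 0.36 ± 0.17 in FL cultures without a call. The calls of Ctsc, Glb1 and Atp6v0a1 were all lost with only the compared groups fitted (adjusted p = 0.187, 0.24 and 0.263). With the block 5 were higher and 3 lower (2.47% and 1.8% of all genes). Leaving out the DMSO library of culture 91 gave 8 higher and 1 lower, with no share over all genes kept.

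The 24 h change in DMSO also differed between culture types, with 6 members lower and 1 higher in FL cultures (background 3.96% and 0.881%). With the block 8 were lower and 1 higher (7.62% and 2.14% of all genes). Lipa rose in GM cultures (1.06 ± 0.11) and stood at -0.57 ± 0.24 in FL cultures, a difference of -1.65 ± 0.26 (adjusted p = 0.000702). Atp13a2 rose by 0.39 ± 0.08 in GM and fell by 1.61 in FL cultures, a difference of -2.02 ± 0.37 (adjusted p = 0.00258). Psap, Hexa, Tfeb and Grn differed by -1.43 ± 0.30, -1.31 ± 0.29, -1.27 ± 0.26 and -0.77 ± 0.22, and Atp6v0a1 by 0.67 ± 0.17. The calls of Grn and Atp6v0a1 were lost without 9 and 4 single libraries, and those of Atp13a2, Grn, Hexa and Psap with only the compared groups fitted.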

How the data were processed

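Messenger RNA was sequenced from 24 libraries (TruSeq Stranded mRNA, NovaSeq6000, per the labels' protocols). The submitters' processing notes list STAR 2.7.3a, HTSeq 0.12.4, DESeq2 1.30.1 and the build GRCm39. No strand setting is stated there, so genes that overlap others are uncertain. The authors deposited raw counts per gene, and lines that name no gene (11.0% to 16.4% of counts) were left out. Symbols were taken by identifier from GENCODE M21 (GRCm38). Counts were fitted with edgeR 4.0.16 in R 4.3.3 (TMM, filterByExpr, robust quasi-likelihood) in models of 15 GM libraries (16152 genes), 9 FL libraries (15961 genes) and all 24 (17262 genes), with Benjamini-Hochberg adjustment over all genes. The FL block was used because same-numbered libraries share a culture, and their deviations correlated at 0.116 to 0.813. The members and gene lists were chosen with earlier results of these data known. Values by library are given for the largest called rise and fall of each class at 1 µM, over 24 h in GM cultures and between culture types at t0, and for members called in FL cultures at 0.05 µM. Other lists are named by up to 2 rises and 2 falls. A gene that this rule named is not reported here. The fitting was tested on simulated data. Alternatives were other scalings, no filter, a replicate block, other library sets, each library left out and DESeq2 1.42.0. Leaving out culture 91 was added after seeing the data.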

Additional observations from a re-analysis of the deposited data

Results flagged for a closer look

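For 3 members the response to AZD5582 differed between FL cultures at 0.05 µM and GM cultures at 0.1 µM by the test of the difference itself, with the doses unequal. The log2 response in FL minus that in GM cultures was 1.22 for Ctsc, 0.92 for Glb1 and 0.74 for Atp6v0a1. Glb1 and Atp6v0a1 were not called with library totals in place of TMM (adjusted p = 0.169 and 0.0545), and Ctsc and Atp6v0a1 were not called without single GM libraries. None of the 3 was called with only the compared groups fitted (adjusted p = 0.187, 0.24 and 0.263), and Ctsc alone was called without a filter on low counts.

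For 7 members the 24 h change in DMSO differed between culture types by the same test. The change in FL minus that in GM cultures was -1.31 for Hexa, -1.65 for Lipa, -1.43 for Psap, -0.77 for Grn, -2.02 for Atp13a2, -1.27 for Tfeb and 0.67 for Atp6v0a1. Hexa, Grn and Tfeb were not called with library totals (adjusted p = 0.071, 0.204 and 0.0516), and Atp13a2, Grn, Hexa and Psap with only the compared groups fitted (adjusted p = 0.0659, 0.258, 0.102 and 0.102).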

How the results depend on the processing

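No called member changed sign in any alternative run. Median-of-ratios scaling kept every count within 1.5 times. Main counts of members higher and lower were 6 and 24, 6 and 27, and 4 and 27 at 0.1, 0.5 and 1 µM. With all 24 libraries in one model the higher counts were 3, 2 and 2 (9.35%, 14.9% and 15.5% of all genes). No slope was upward (0, against 0.643% of all genes). That model gave 7 higher and 3 lower over 24 h in GM cultures (18.7% and 11.1% of all genes). It gave 4 and 13 at 0.05 µM (7.36% and 8.4%), and 7 and 13 over 24 h in FL cultures (15.3% and 15.4%). Library totals gave 3 higher at 0.5 µM (18.8% of all genes) and 0 upward slopes (3.06%). They gave 13 lower over 24 h in GM (28.1%) and 1 higher in FL cultures (4.39%), and 3 lower for the difference of 24 h changes (2.8%). Summed levels with library totals were 45020, 20580 and 17890 CPM in GM cultures at t0, 0.5 and 1 µM. Without a filter there were 0 upward slopes (4.51% of all genes) and 1 higher difference of responses (0.271%). With only the compared groups fitted there were 0 upward slopes (6.04% of all genes) and 0 higher and 0 lower at 0.05 µM (0.173% and 0.0333%). That setting also gave 0 lower over 24 h in FL cultures (2.3%), 0 higher differences of responses (0.0683%) and 2 lower differences of 24 h changes (1.01%). DESeq2 gave 4 and 7 at 0.05 µM (4.69% and 4.87% of all genes), 3 higher over 24 h in FL cultures (11.7%), and 5 and 2 differences of responses (1.76% and 1.91%). The replicate block gave 3 and 5 at 0.05 µM (3.69% and 3.19% of all genes), 1 higher over 24 h in FL cultures (9.23%), and 5 and 3 differences of responses (2.47% and 1.8%). Without culture 91 there were 5 and 7 at 0.05 µM (8.03% and 6.05% of all genes) and 1 higher over 24 h (4.39%).

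With each library left out in turn, higher and lower counts ranged from 5 to 8 and 21 to 25 at 0.1 µM, 5 to 7 and 25 to 27 at 0.5 µM, 4 to 5 and 26 to 27 at 1 µM, 0 to 1 and 22 to 25 for the slope, and 12 to 15 and 6 to 9 over 24 h in GM cultures. In FL cultures they ranged from 0 to 4 and 0 to 5 at 0.05 µM and 0 to 1 and 0 to 3 over 24 h. Between culture types they were 0 to 0 and 29 to 31 at t0, 1 to 8 and 0 to 1 for responses, and 0 to 1 and 5 to 7 for 24 h changes. Shares over all genes were not kept for these runs.

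GM libraries share only a number: deviations of same-numbered libraries correlated at 0.035 to 0.484, and not every pair was over 0.1. The block there gave 7 and 24, 7 and 27, and 4 and 27 at the 3 doses, adding Npc2 at 0.1 µM and Gaa at 0.5 µM, and changed no other call. Of all genes it called 21.1% and 21.2%, 26.4% and 28.5%, and 27.6% and 28.8% higher and lower.

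With 3 libraries a group and a larger spread in FL cultures (biological coefficient of variation 0.390, against 0.146 in GM cultures), members not called there were not shown to be unchanged, and which members were called depended on the fit and on culture 91.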
